A study of Ovis aries with 32 samples.

Results

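Integrins, laminins and the proteins that join laminin networks to one another and to the cell were followed in perirenal preadipocytes of fetal sheep before and after their differentiation to adipocytes. Members are the genes whose symbol names an integrin alpha or beta chain, a laminin alpha, beta or gamma chain, a nidogen (NID1, NID2), perlecan (HSPG2), agrin (AGRN) or dystroglycan (DAG1). The deposited table lists 39 such genes. For 34 of them, with 72 transcripts, the summed value was 10 or more in 4 or more of the 32 libraries. This filter kept 12737 of the 21271 genes listed. The 5 members below the filter were ITGB4, ITGB6, ITGAL, ITGAM and ITGB2. The measured members were 3 laminin-binding, 4 collagen-binding and 3 RGD-binding integrin alpha chains, ITGA4 and ITGA9, 4 leukocyte integrin chains, 3 other beta chains, 4 laminin alpha, 3 beta and 3 gamma chains, and 5 linkers, proteoglycans or receptors. No gene was listed under the symbols ITGA2B, ITGB3, LAMA1 and LAMB4, so these were not analysed.

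RNA was sequenced from 8 groups of 4 libraries each. Preadipocytes came from the perirenal fat of near-term male and female control fetuses (MC and FC) and of male and female growth-restricted fetuses (MFGR and FFGR), all singletons of crossbred Columbia-Rambouillet ewes. MCD, FCD, MFGRD and FFGRD are cells of the same 4 kinds after differentiation to mature adipocytes. In the growth-restricted groups the ewe had been kept in hot surroundings through mid-gestation, which impairs the placenta, whereas control ewes were kept at a moderate temperature and pair-fed. No genotype or drug separates the groups. The culture conditions of the differentiation are not given in the sources used here, and the labels describe the extraction for adipose tissue while the methods of the study describe cell pellets.

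Laminins are cross-shaped trimers of 1 alpha, 1 beta and 1 gamma chain that form the sheet of a basement membrane. Nidogens, perlecan and agrin link this sheet to the collagen IV network, and cells hold on to it through laminin-binding integrins and through dystroglycan. Each fat cell in adipose tissue is wrapped in such a basement membrane, whereas fibroblast-like precursors rest in a looser matrix of fibrillar collagen and fibronectin. An integrin is a pair of 1 alpha and 1 beta chain, and the alpha chain largely sets the ligand.

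Values are normalized values summed over the transcripts of a gene, and are not corrected for gene length, so that levels are compared between libraries and not between genes. The values of a library summed to between 9.52 and 21.22 M, with a median of 12.59 M, which stood for approximately 7.76 to 21.3 M reads. A value of 10 stood for 5.6 to 14.4 reads. In 9 libraries, 4 of preadipocytes and 5 of differentiated cells, values rose little or not at all with the genomic span of the gene. In these the slope of log2 values on log10 span lay between -0.284 and 0.245, against 0.50 to 0.91 in the other 23, and they are called low-slope libraries. They are MFGR1, FC2, FFGR2, FFGR3, MCD2, MCD4, MFGRD1, FCD2 and FFGRD3, where the digit is the replicate number. All 10 adipocyte markers rose with differentiation, with ADIPOQ (adiponectin) between 0 and 216 in preadipocytes and between 8.59 and 13421 in differentiated libraries. In the library labelled FCD4 ADIPOQ stood at 8.59 and FABP4 at 215, the lowest of the differentiated libraries. For markers of other cells, 1 of 8 preadipocyte or fibroblast genes tested rose and 3 fell, 1 of 4 endothelial genes fell, and 4 of 6 mural genes fell. Of 3 leukocyte genes tested 2 rose and 1 fell, of 5 mesothelial or epithelial genes 0 were called, and 1 of 1 Schwann and 3 of 4 adrenal cortex genes rose. CDH5, which defines endothelium, did not exceed 2.31, and PTPRC, which defines leukocytes, did not exceed 4.45 outside FFGR4, where it was 55.8. The epithelial keratin KRT8 had a preadipocyte median of 11.7 but stood at 1217 in FC3, 391 in MFGR3 and 322 in FFGR4. In differentiated libraries KRT8 did not exceed 50.3.

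The first comparison asked which members changed on differentiation, as the mean of the 4 contrasts MCD against MC, FCD against FC, MFGRD against MFGR and FFGRD against FFGR. Among the laminin-binding integrins, and among the laminin alpha chains, members moved in opposite directions. ITGA6, NID2 and LAMA2 rose, whereas ITGA3, LAMA5, LAMA3, ITGA9, ITGAX, ITGAD and ITGB7 were among those that fell. The abundant chains LAMA4, LAMB1, LAMC1 and ITGB1 were not called. A gene was called at a Benjamini-Hochberg adjusted p below 0.05 over all genes in limma with a fold above 1.5, and 11 of the 34 members (32.4%) were called, 3 higher and 8 lower. Of all 12737 genes 27.2% were called, 12.4% higher and 14.8% lower, so the share among the members was near that of all genes. The median log2 fold change of the members was -0.25, and that of all genes 0.04. In bulk RNA, fewer cells of one type and less RNA in each of its cells cannot be told apart.

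**Figure D1:**
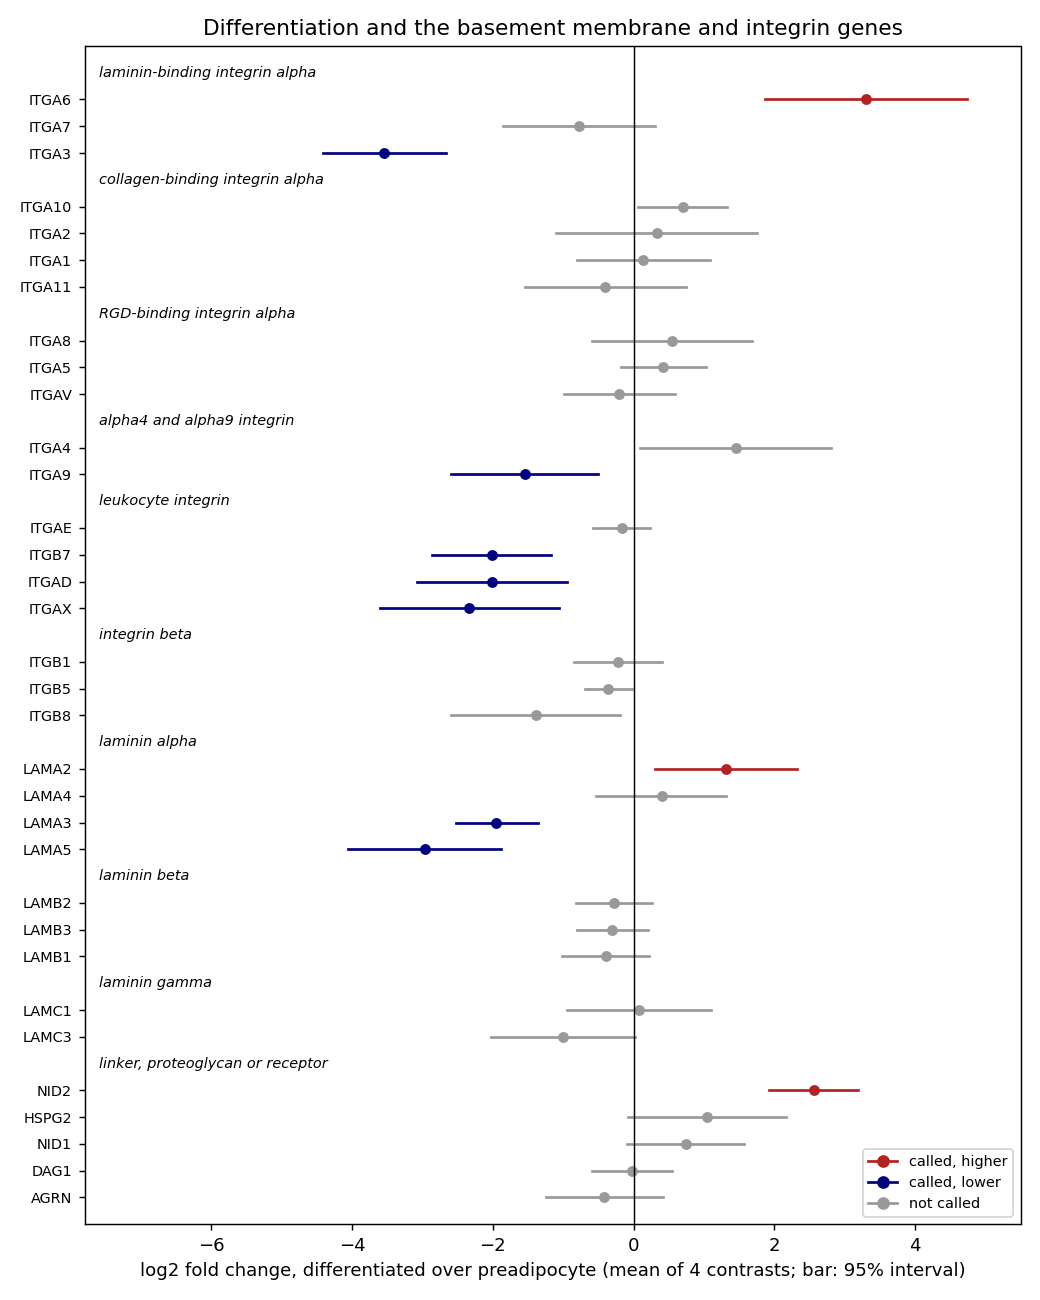
Log2 fold change of the members reported between differentiated cells and preadipocytes (horizontal axis, on the log2(value + 1) scale), grouped by role. Points are the mean of the 4 contrasts and bars the 95% interval. ITGA6 (3.30) and NID2 (2.56) lie furthest to the right and ITGA3 (-3.54) and LAMA5 (-2.97) furthest to the left.

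The alpha chains that bind laminin were the most divided class. ITGA6 (ENSOARG00020002418, chromosome 2, 148146334 to 148232859 in Oar_rambouillet_v1.0) encodes the alpha6 chain, which pairs with the beta1 or beta4 chain. In preadipocytes its values were 174, 44.9, 33.8 and 15.8 in MC, 259, 8.90, 105 and 33.2 in FC, 5.58, 44.7, 128 and 40.4 in MFGR, and 102, 4.17, 20.7 and 385 in FFGR. After differentiation they were 562, 820, 2619 and 1095 in MCD, 694, 528, 825 and 5.62 in FCD, 1027, 180, 423 and 99.1 in MFGRD, and 2489, 523, 1097 and 83.5 in FFGRD. Of the 16 differentiated libraries 12 lay above every preadipocyte library, and FCD4 lay among the lowest preadipocytes. The log2 fold change was 3.30 ± 0.70 (SE, 16 against 16 libraries), or 9.87-fold, with an adjusted p of 0.000525. Without FCD4 it was 3.72, and without the 9 low-slope libraries 2.07 with an adjusted p of 0.0421. Of 51 transcripts of members tested 14 were called, beside 19.8% of all transcripts, and both measured ITGA6 transcripts rose, ITGA6-202 by 4.26 and ITGA6-204 by 2.89 on the log2 scale.

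ITGA3 (ENSOARG00020011374, chromosome 11, 26733084 to 26760060) encodes the alpha3 chain, the other widespread laminin-binding partner of beta1. It stood at 157, 93.7, 116 and 144 in MC, 171, 28.0, 242 and 129 in FC, 92.1, 299, 84.5 and 280 in MFGR, and 230, 23.6, 109 and 220 in FFGR. It stood at 15.8, 5.88, 0.841 and 2.33 in MCD, 17.4, 194, 14.0 and 13.4 in FCD, 12.6, 11.7, 3.09 and 10.3 in MFGRD, and 9.47, 3.11, 4.68 and 29.1 in FFGRD. Of the differentiated libraries 14 lay below every preadipocyte library, and FCD2 alone lay in the upper part of the preadipocyte range. On the log2 scale ITGA3 changed by -3.54 ± 0.43, or 11.6-fold lower (adjusted p = 2.96e-07), and -3.77 without FCD2. FCD2 also held PECAM1 at 272 and CSPG4 at 850, the highest of the differentiated libraries for both, and the part of other cells in its ITGA3 value was not tested. ITGA7, the chain typical of muscle, had a median of 10.4 in preadipocytes and 6.07 after differentiation, and its log2 fold change of -0.77 was not called (adjusted p = 0.290). It was -1.32 and called without the low-slope libraries (adjusted p = 0.0184).

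**Figure D2:**
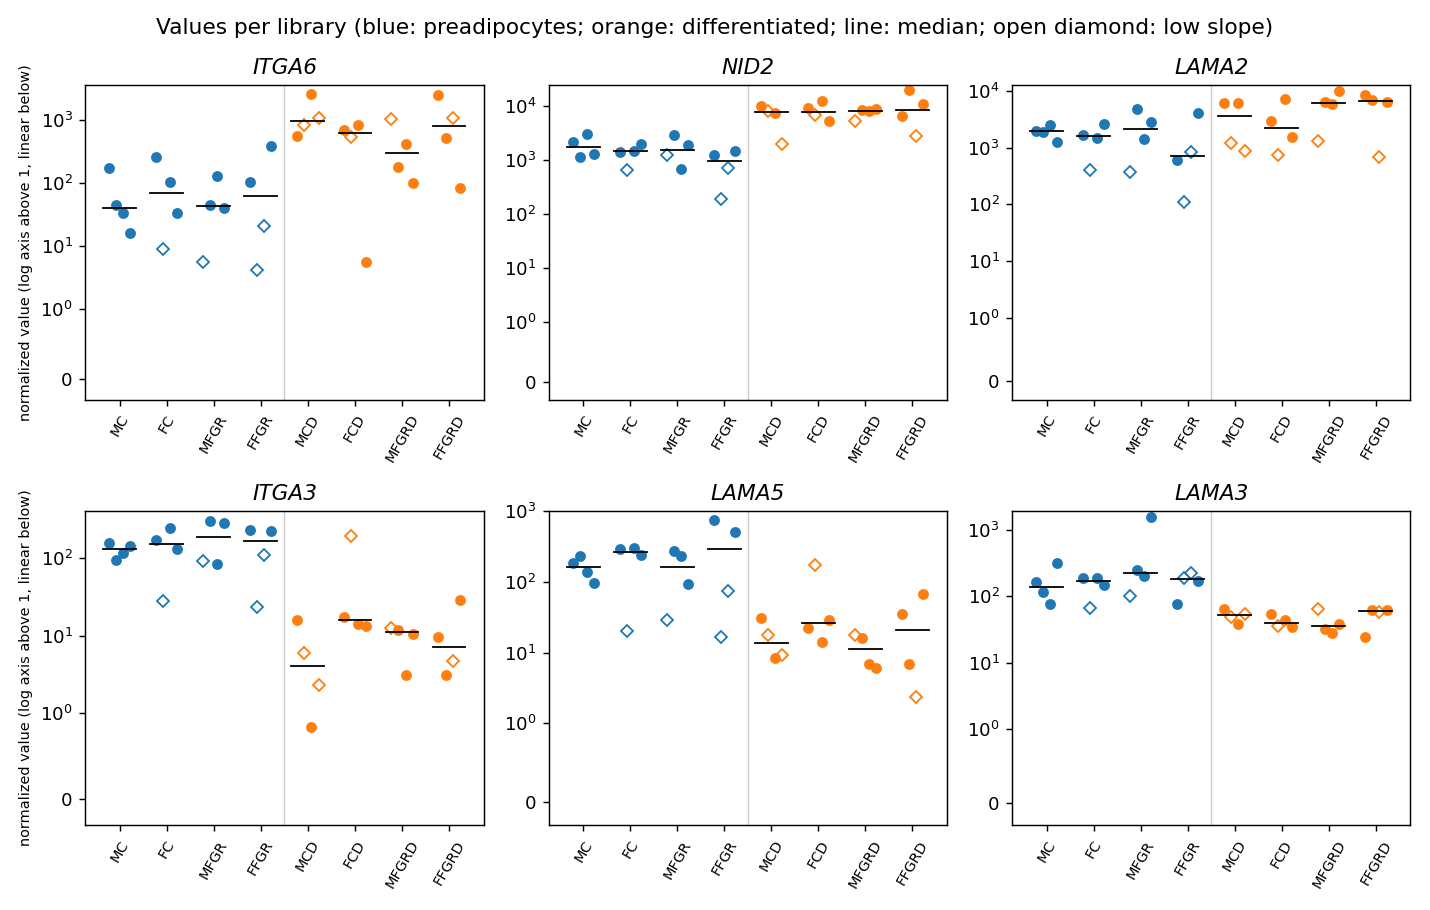
Normalized value of 6 members in each library by group (vertical axis logarithmic above 1 and linear below), with preadipocytes in blue, differentiated cells in orange, group medians as lines and low-slope libraries as open diamonds. LAMA3 is lower in all 16 differentiated libraries than in any preadipocyte library, while ITGA6 in FCD (5.62) and ITGA3 in FCD (194) each have 1 library on the side of the preadipocytes.

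The laminin alpha chains also divided. LAMA3, the chain of epithelial laminins, and LAMA5, a widespread chain, fell, LAMA2, the chain of muscle and nerve laminins, rose, and LAMA4, the chain of vascular and adipose laminins, was not called. LAMA3 (ENSOARG00020025616, chromosome 23, 37473932 to 37734551) stood at 164, 114, 77.0 and 313 in MC, 190, 67.3, 190 and 149 in FC, 99.9, 248, 201 and 1568 in MFGR, and 75.1, 190, 227 and 168 in FFGR. It stood at 63.2, 48.6, 38.6 and 54.8 in MCD, 53.6, 35.9, 44.2 and 34.4 in FCD, 64.4, 31.9, 27.8 and 38.8 in MFGRD, and 24.4, 62.0, 57.3 and 61.8 in FFGRD. It was the 1 member whose stages did not overlap, a pattern that 1.09% of all genes had. The log2 fold change was -1.95 ± 0.28, or 3.86-fold lower (adjusted p = 4.94e-06). Its transcripts did not fall alike in size. LAMA3-201 went from a median of 90.6 to 1.92 and its share of the gene from 49.4% to 11.4%, while LAMA3-203 went from 81.6 to 38.3 and made up 83.7% of the gene in differentiated cells. The log2 fold changes were -3.96 ± 0.76 for LAMA3-201 and -1.35 ± 0.28 for LAMA3-203, and the difference between them was not tested.

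LAMA5 (ENSOARG00020005901, chromosome 13, 57239740 to 57290970) stood at 184, 231, 141 and 96.8 in MC, 290, 20.3, 301 and 243 in FC, 28.6, 273, 231 and 92.8 in MFGR, and 767, 16.6, 75.0 and 520 in FFGR. After differentiation it stood at 30.5, 17.7, 8.36 and 9.34 in MCD, 22.6, 176, 14.0 and 29.5 in FCD, 17.9, 15.9, 6.95 and 6.03 in MFGRD, and 35.3, 6.97, 2.33 and 67.7 in FFGRD. All 16 differentiated libraries lay below the preadipocyte median of 207, 8 of them below every preadipocyte library, and FCD2 was again the highest. LAMA5 changed by -2.97 ± 0.53 on the log2 scale, or 7.83-fold lower (adjusted p = 7.64e-05). LAMA5-201 fell by 3.28 on the log2 scale, and LAMA5-202, with medians of 0 and 7.66, was not called.

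LAMA2 (ENSOARG00020007456, chromosome 8, 60141695 to 60975722) stood at 1980, 1909, 2465 and 1245 in MC, 1660, 396, 1493 and 2647 in FC, 379, 4847, 1438 and 2890 in MFGR, and 596, 108, 855 and 4039 in FFGR. It stood at 6147, 1193, 6038 and 874 in MCD, 2949, 753, 7355 and 1530 in FCD, 1333, 6365, 5836 and 10171 in MFGRD, and 8315, 6856, 697 and 6405 in FFGRD. The differentiated libraries parted by slope, since the 5 of low slope lay between 697 and 1333 and 9 of the other 11 lay above every preadipocyte. Among preadipocytes the low-slope libraries FFGR2 (108), MFGR1 (379) and FC2 (396) were the lowest. The parting was not complete there, with FFGR1 (596) below the low-slope library FFGR3 (855). The log2 fold change was 1.32 ± 0.49, or 2.50-fold, with an adjusted p of 0.0387. The call was lost in 16 of the 32 fits that each left out 1 library, with adjusted p up to 0.0702, and without the low-slope libraries the estimate was 1.53 with an adjusted p of 0.000762. LAMA4 ranged from 680 to 20220 in preadipocytes and from 2185 to 24299 after differentiation, and its log2 fold change was 0.40 with a 95% interval of -0.53 to 1.32 (adjusted p = 0.556).

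None of the 3 laminin beta chains was called. LAMB1, the common beta1 chain, ranged from 3207 to 29480 with a median of 18740 in preadipocytes and from 3479 to 23907 with a median of 13330 after differentiation (log2 fold change -0.39 ± 0.30, adjusted p = 0.354). LAMB2 and LAMB3 had log2 fold changes of -0.28 and -0.30. Of the gamma chains, LAMC1, which most laminins contain, had stage medians of 11709 and 10165, with a log2 fold change of 0.08 and a 95% interval of -0.94 to 1.10. LAMC3 was 2.01-fold lower and not called (adjusted p = 0.128), and was called without the low-slope libraries (-1.60, adjusted p = 0.0115).

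NID2 (ENSOARG00020023556, chromosome 7, 45927040 to 46009522), which links laminin to collagen IV, rose. It stood at 2180, 1146, 3012 and 1269 in MC, 1413, 658, 1459 and 1980 in FC, 1216, 2873, 679 and 1871 in MFGR, and 1220, 186, 723 and 1475 in FFGR. It stood at 10167, 8194, 7573 and 1959 in MCD, 9010, 6793, 12585 and 5289 in FCD, 5268, 8358, 8105 and 8945 in MFGRD, and 6454, 19530, 2738 and 10761 in FFGRD. Of the differentiated libraries 14 lay above every preadipocyte library, FCD4 among them, and the other 2, MCD4 and FFGRD3, were low-slope libraries. NID2 thus changed by 2.56 ± 0.31 on the log2 scale, or 5.90-fold (adjusted p = 2.66e-07), and 2.55 without the low-slope libraries.

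The other linkers and receptors were not called. NID1 had stage medians of 1479 and 2189 (log2 fold change 0.74 ± 0.40, adjusted p = 0.174). With the slope as a covariate NID1 was called (0.77, adjusted p = 0.0213). HSPG2, the large heparan sulfate proteoglycan of basement membranes, had medians of 7653 and 11436 and a highest value of 44286 in FFGRD2 (1.04 ± 0.55, adjusted p = 0.154). Its adjusted p was 0.0419 without FFGRD3 and 0.0498 without the low-slope libraries. With a replicate block, which pairs libraries of the same sex, growth group and number across the stages, it was 0.0381. It was 0.000662 with the slope as a covariate and 0.0246 with library weights. AGRN, a proteoglycan that binds laminin and dystroglycan, changed by -0.42 ± 0.41. DAG1, whose product ties laminin to the cytoskeleton from outside the integrin family, had -0.02 with a 95% interval of -0.59 to 0.55.

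The collagen-binding and RGD-binding alpha chains held no called member. The collagen receptors ITGA1, ITGA2, ITGA10 and ITGA11 had log2 fold changes of 0.14, 0.33, 0.70 and -0.40. Without the low-slope libraries the direction turned for ITGA1 (-0.15), ITGA2 (-0.60) and ITGA11 (0.38), and with library weights it turned for ITGA2 (-0.37) and ITGA11 (0.26), with no call in either setting. ITGA10 missed the threshold (adjusted p = 0.0815). It passed without FFGRD3 (0.0248), without MFGRD1 (0.0249), without the low-slope libraries (0.0451) and with the replicate block (0.00811). ITGA11 varied from 65.3 to 5611 among differentiated libraries, so that its interval ran from -1.54 to 0.74. The RGD receptors ITGA5, which binds fibronectin, ITGAV, which binds vitronectin and other ligands, and ITGA8, which binds nephronectin, had log2 fold changes of 0.42, -0.20 and 0.54.

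ITGA9 and ITGA4 are related chains that bind VCAM1, tenascin or fibronectin. ITGA9 (ENSOARG00020025800, chromosome 19, 11518667 to 11882995) had a median of 69.7 with a range of 4.32 to 143 in preadipocytes, and a median of 12.9 with a range of 2.52 to 453 after differentiation. The highest value lay in FCD1, outside the preadipocyte range. The log2 fold change was -1.55 ± 0.51, or 2.93-fold lower (adjusted p = 0.0204), and the adjusted p was 0.0852 without the low-slope libraries. ITGA4 ranged from 0 to 157 in preadipocytes and from 5.88 to 872 after differentiation, with the highest value in FCD4, and was not called (1.45 ± 0.66, adjusted p = 0.0958). It was called without FCD2 (1.73, adjusted p = 0.0370) and without the low-slope libraries (1.99, adjusted p = 0.0190). With the replicate block it was called as well (adjusted p = 0.0343).

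The beta chains outside the leukocyte group were not called. ITGB1, the shared partner of most matrix-binding alpha chains, had stage medians of 22334 and 17848, and its log2 fold change of -0.22 had an interval of -0.85 to 0.41. ITGB5, a partner of the alphaV chain, had the narrowest interval of the members, -0.69 to -0.02 around -0.36 (adjusted p = 0.0961). ITGB8, an alphaV partner that takes part in TGF-beta activation, had medians of 317 and 99.5, and all 16 differentiated libraries lay below the preadipocyte median. Its log2 fold change was -1.39 ± 0.59 (adjusted p = 0.0680). The adjusted p was 0.0150 without FC2, 0.0429 without FFGR2, 0.0459 without FFGR3, 0.0225 without MFGR1 and 0.000180 without all 9 low-slope libraries. With the replicate block it was 0.00668, and ITGB8 was called.

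Of the leukocyte integrin chains ITGAX, ITGAD and ITGB7 fell. ITGAX (ENSOARG00020024317, chromosome 24, 28174315 to 28193306) stood at 19.6, 49.0, 5.13 and 7.21 in MC, 247, 2.54, 4.97 and 19.3 in FC, 0.697, 17.5, 58.6 and 19.2 in MFGR, and 115, 2.77, 1.88 and 20.4 in FFGR, and at 0 to 15.5 in the differentiated libraries. The highest values lay in FC1 and FFGR1, where PTPRC was listed at 0. ITGAX changed by -2.34 ± 0.62 on the log2 scale (adjusted p = 0.00428), ITGAD of -2.01 ± 0.52 (adjusted p = 0.00360) and ITGB7 of -2.01 ± 0.41 (adjusted p = 0.000366). ITGAD was at 0 in 12 of the 32 libraries and in all of FFGRD, and ITGB7 did not exceed 6.46 after differentiation, so these fitted values depend on the added constant and are no bounds. ITGB2, the beta chain with which the ITGAX and ITGAD products pair, was at 0 in 23 libraries and reached 87.6 in FFGR4, the library with the highest PTPRC. ITGAM, ITGAX and ITGAD are similar neighbours on chromosome 24 whose reads may be split uncertainly. ITGAE was not called (-0.17).

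In single contrasts fewer members were called, and all 11 members called in the mean had the same sign in 4 of 4 contrasts. In MCD against MC 4 members were called, 1 higher and 3 lower, beside 8.35% of all genes (3.8% higher, 4.55% lower), ITGA6 (4.53), ITGA3 (-4.61), LAMA5 (-3.34) and ITGB7 (-3.32 on the log2 scale). In FCD against FC 1 member was called higher, beside 2.52% of genes (1.08% higher, 1.44% lower), NID2 (2.64). In MFGRD against MFGR 3 were called, 1 higher and 2 lower, beside 5.13% (2.03% higher, 3.1% lower), ITGA3 (-4.09), NID2 (2.37) and LAMA3 (-2.91). In FFGRD against FFGR 3 were called, 1 higher and 2 lower, beside 10.3% (4.33% higher, 5.99% lower), NID2 (3.47), ITGA3 (-3.55) and LAMA5 (-3.25). The ITGA3, ITGB7 and LAMA3 calls and that of NID2 in FFGRD held in all 32 fits that left out 1 library. The LAMA5 calls were lost in 23 of 32 such fits for MCD and 27 for FFGRD, that of ITGA6 in MCD in 6, and those of NID2 in 3 for FCD and 4 for MFGRD. With each contrast fitted on its own 8 libraries FFGRD against FFGR held 0 calls among the members, beside 2.67% of the genes tested there.

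ITGA6 followed the adipocyte marker ADIPOQ across the differentiated libraries, a relation computed after the values had been seen. In FCD4, ITGA6 was 5.62 with ADIPOQ at 8.59. In MFGRD4 it was 99.1 with ADIPOQ at 146, and in FFGRD4 83.5 with ADIPOQ at 175. In MCD3 it was 2619 with ADIPOQ at 13421, and in FFGRD1 2489 with ADIPOQ at 9580. The libraries low in one gene were thus low in the other. Over the 16 libraries Pearson's r of the log2 values was 0.95 and Spearman's rho 0.94 (permutation p = 1e-05 for each, the smallest that 100000 permutations can give, and 0.00011 after Benjamini-Hochberg adjustment over 11 members). Without the 2 libraries furthest from the ADIPOQ median, FCD4 and MCD3, r was 0.89. Within groups it was 0.95, and it was 0.99 in the 11 libraries of higher slope, while the 5 low-slope libraries were too few for a value. The other 10 called members gave Pearson's r between -0.50 and 0.17, with adjusted permutation p of 0.253 or more. NID2 had r = -0.28, LAMA2 -0.16 and ITGA3 -0.44. In the 11 libraries of higher slope the direction turned for NID2 (0.21) and LAMA2 (0.56), and ITGA3 had -0.48. NID2 was 5289 in FCD4, above every preadipocyte library, although ADIPOQ there was 8.59. The difference between the r of ITGA6 and those of the other members was not tested. How many of all genes follow ADIPOQ as closely was not computed.

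**Figure D3:**
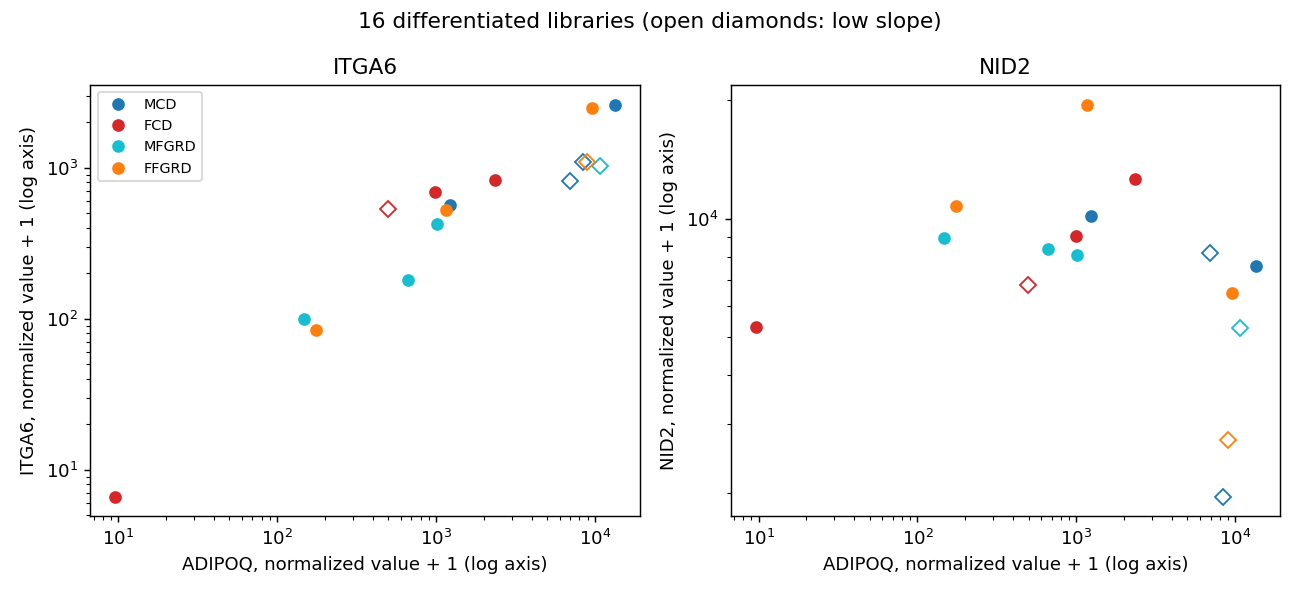
ITGA6 (left) and NID2 (right) against ADIPOQ in the 16 differentiated libraries, both axes logarithmic in normalized value + 1, coloured by group, with low-slope libraries as open diamonds. ITGA6 climbs with ADIPOQ from FCD4 (5.62 and 8.59) to MCD3 (2619 and 13421), while r for NID2 is -0.28 over the 16 libraries and 0.21 in the 11 of higher slope.

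The abundant laminin chains and their receptor chain varied among libraries with the slope on gene span. LAMA4 lay between 680 and 5159 in the 9 low-slope libraries and between 5965 and 24299 in the other 23. LAMB1 lay between 3207 and 8623 against 9079 to 29480, and LAMC1 between 782 and 7142 against 7538 to 20591. The low-slope libraries thus lay below all others for these 3 chains, and also for ITGAV (536 to 1810 against 2437 to 6344). The slope was fitted on these same values, and the share of all genes that part in this way was not computed. ITGB1 lay between 5418 and 22023 against 12325 to 43860 and HSPG2 between 676 and 12760 against 3113 to 44286, with overlap. ITGAE went the other way, with 79.9 to 167 in the low-slope libraries and 41.1 to 107 in the others. What sets the slope was not tested. With the slope as a covariate 16 members (47.1%) were called, beside 33% of all genes. Without the 9 libraries, a setting chosen after the data had been seen, 16 were called as well, beside 28% of all genes.

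**Figure D4:**
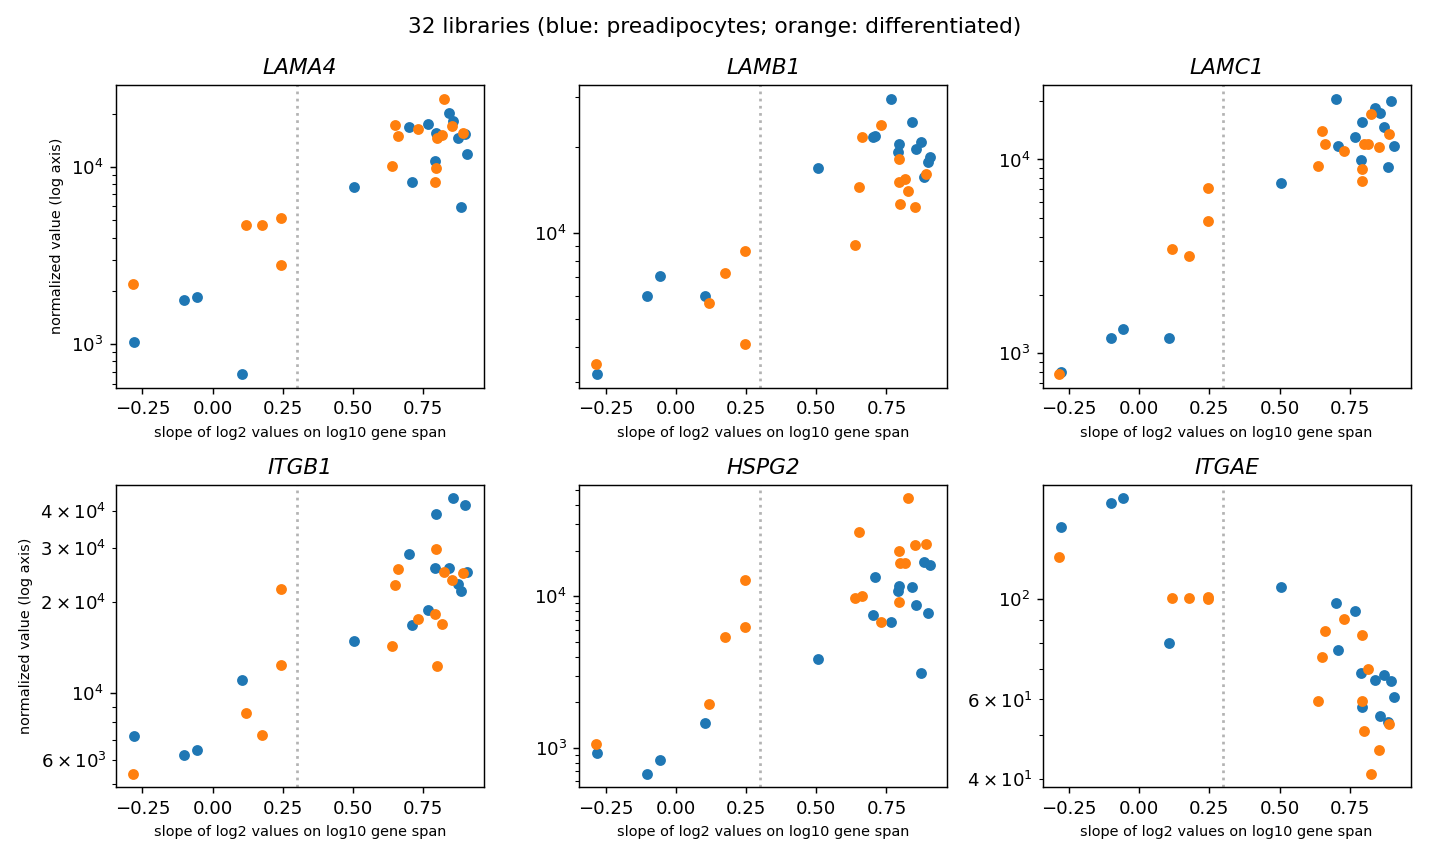
Normalized value (logarithmic axis) of 6 members against the slope of log2 values on log10 gene span in the 32 libraries, preadipocytes in blue and differentiated cells in orange, with a dotted line at 0.3. LAMA4, LAMB1 and LAMC1 are lower in every library left of the line than in any library to its right, and ITGAE tends to be higher there.

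The effect of growth restriction was examined in males and females and at both stages. No member was called in any of the 4 comparisons, MFGR against MC, FFGR against FC, MFGRD against MCD and FFGRD against FCD, or with the sexes pooled, and 0 of the 12737 genes were called (0%) by limma. At an unadjusted p below 0.05 stood 0 members in preadipocytes and 0 in differentiated cells with the sexes pooled, beside 344 and 136 of all genes. In FFGRD against FCD 1 member did, ITGA9 (-2.46), beside 192 of all genes. MFGR against MC, FFGR against FC and MFGRD against MCD held 0 members, beside 175, 169 and 342 of all genes. The intervals left room for changes of moderate size. LAMA4 had a log2 fold change of -1.19 in growth-restricted preadipocytes with an interval of -2.50 to 0.12 (adjusted p = 0.840), and 3 of the 8 growth-restricted against 1 of the 8 control preadipocyte libraries were of low slope. ITGA6 had -0.33 (interval -2.36 to 1.71) in preadipocytes and -0.19 (-2.22 to 1.85) after differentiation. NID2 had -0.57 (-1.46 to 0.32) and 0.15 (-0.73 to 1.04), and ITGA3 0.15 (-1.09 to 1.39) and -0.40 (-1.64 to 0.84). ITGB5, the member with the tightest estimates, had 0.43 (-0.05 to 0.90) and 0.38 (-0.10 to 0.85).

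Sex was compared in the same way, males against females. In each of the 4 single and 2 pooled comparisons 0 members and 0% of genes were called. These counts hold for the limma fit of gene sums used here. The study itself, with DESeq2 at an adjusted p below 0.05 and a fold above 1.5, reported differentially expressed genes in each of the 4 single comparisons. At an unadjusted p below 0.05, the pooled preadipocytes held 1 member, ITGA7 (-1.58, interval -3.11 to -0.05), beside 550 of all genes, and the pooled differentiated cells 1, ITGA3 (-1.25, -2.49 to -0.01), beside 159. ITGA7 stood at 6.13, 0, 2.05 and 4.32 in MC and at 96.4, 1.27, 25.9 and 41.6 in FC, so that 3 of 4 female libraries lay above all 4 male ones (log2 fold change -2.77, adjusted p = 1). ITGA3 stood lower in 3 of 4 MCD libraries than in any FCD library, in a comparison in which FCD2 held 194 (-2.52, adjusted p = 0.953). ITGA9 (-2.49) and ITGA10 (-1.34) were the other members at an unadjusted p below 0.05 in MCD against FCD, beside 551 of all genes. MC against FC held ITGA7 alone, beside 135 of all genes. MFGR against FFGR and MFGRD against FFGRD held 0 members, beside 355 and 96 of all genes.

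Whether the response to differentiation itself differed was tested with interaction contrasts, and 0 members and 0 of the 12737 genes were called for growth-restricted against control cells or for males against females. At an unadjusted p below 0.05 stood 0 members in both, beside 132 and 116 of all genes. ITGA3 had the log2 difference nearest to that threshold among the called members, -1.62 in males relative to females (interval -3.37 to 0.14). LAMA2 had 1.40 in growth-restricted relative to control cells (interval -0.62 to 3.42). For ITGA6 the differences were 0.14 (-2.73 to 3.01) and 0.98 (-1.89 to 3.86), wide enough to hold differences as large as several of the changes reported above.

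**Figure D5:**
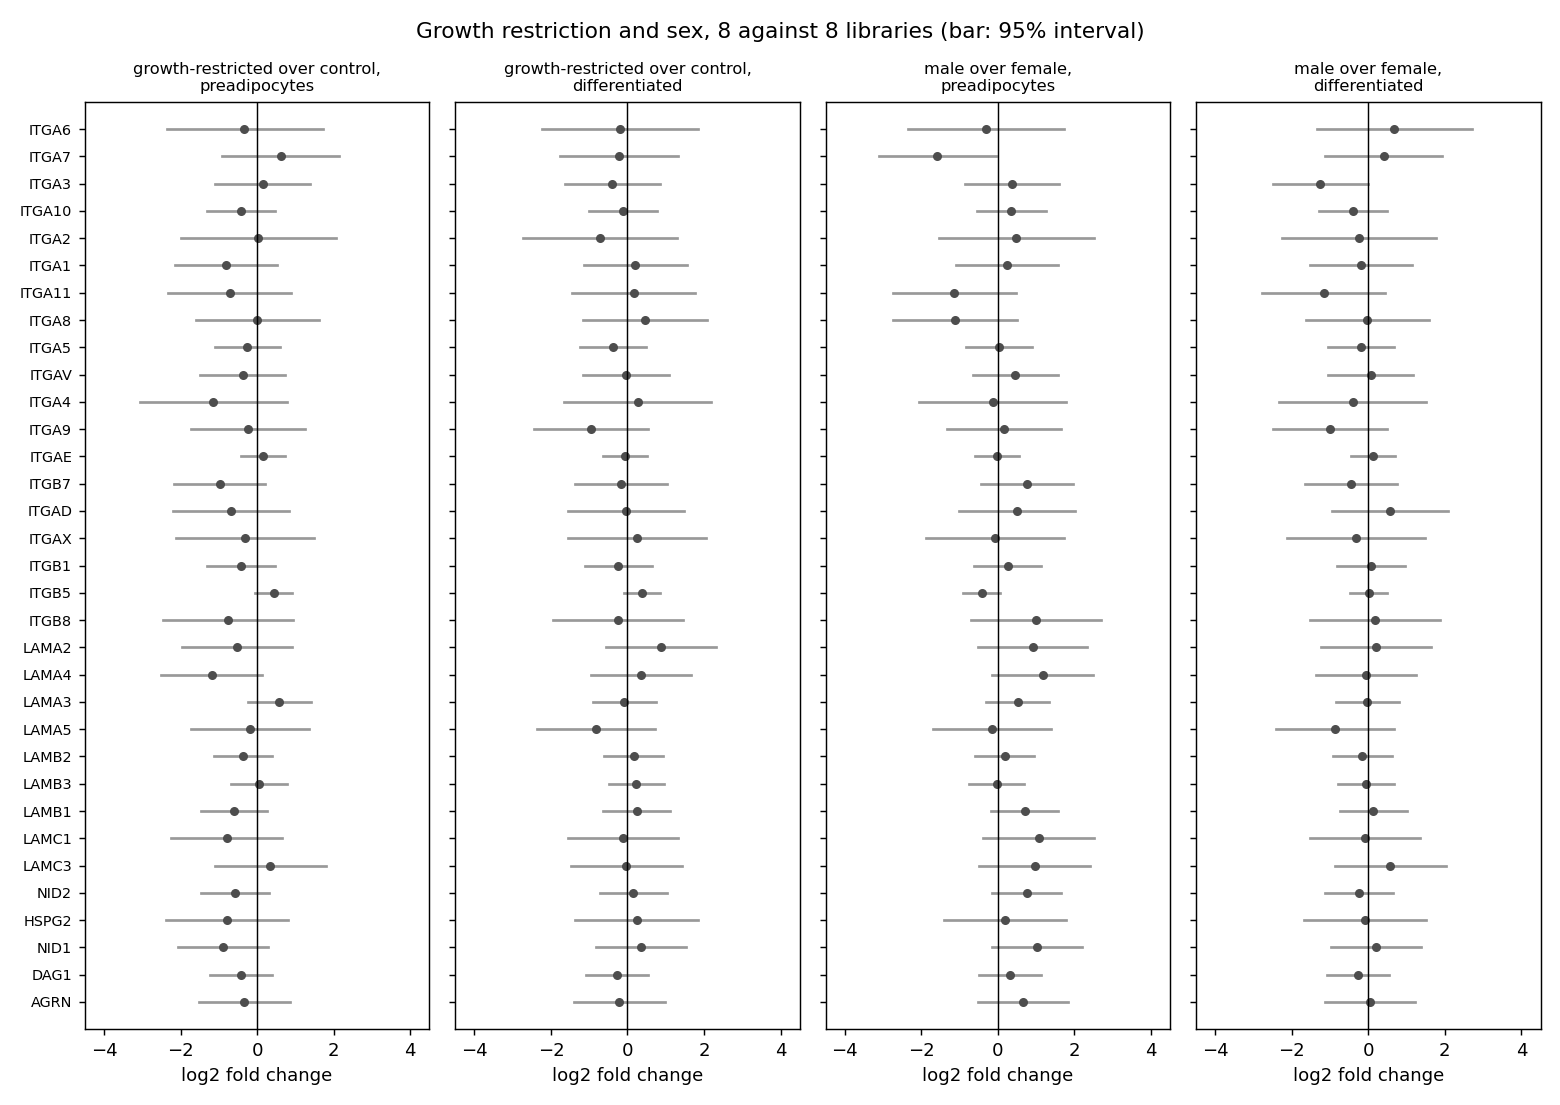
Log2 fold change (point) and 95% interval (bar) of the members reported for growth restriction and for sex at each stage, 8 against 8 libraries. No member is called, and the interval of ITGB5 (-0.05 to 0.90 in growth-restricted preadipocytes) is among the narrowest and that of ITGA6 (-2.36 to 1.71) among the widest.

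The genes around the members were read from 3 lists drawn up for the comparison. Of 20 measured genes of other basement membrane and matrix ligands 7 rose and 6 fell (median log2 fold change 0.54). SMOC1 (3.93 ± 0.45, adjusted p = 1.42e-07), a basement membrane glycoprotein, and COL18A1 (2.94 ± 0.46, adjusted p = 1.43e-05), the collagen that carries endostatin, rose most, and TGFBI (-4.59 ± 0.52, adjusted p = 1.27e-07), an integrin ligand, and SMOC2 (-2.43 ± 0.35, adjusted p = 4.49e-06) fell most. COL4A1 (2.53, adjusted p = 7.65e-06) and COL4A2 (2.32, adjusted p = 7.50e-06), which form the common collagen IV network, also rose, and were named after their values had been seen. COL4A1 went from a median of 8725 to 58642.

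Of 26 measured genes of the integrin adhesion complex 2 rose and 9 fell (median -0.41). TNS1 (1.92), tensin 1, and FERMT2 (0.63), the kindlin of most adherent cells, rose, while FERMT1 (-3.12), the kindlin of epithelia, and LIMS2 (-1.99), a partner of integrin-linked kinase, fell most. Of 17 measured genes of the dystroglycan complex 1 rose and 4 fell (median 0.08), with SGCB (1.75), beta-sarcoglycan, higher and DTNA (-1.41), a dystrobrevin, among the lower ones. These shares of calls stand beside the 27.2% of all genes.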

How the data were processed

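The authors prepared libraries with the Swift RNA kit, discarded reads of low quality, assigned the remaining ones to Ensembl transcripts (genome Oar_rambouillet_v1.0) with Salmon, and applied DESeq2 size-factor normalization; FastQC 0.11.9 is named in the submitters' processing notes. The deposited signal is a normalized value for each of 35219 transcripts in 32 libraries, 3843 of them at 0 throughout, and whole reads could not be recovered from it. The deposited columns of fold change, p-value, adjusted p-value and group mean hold the authors' own DESeq2 comparisons and were not used.

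Values were summed per gene and fitted as log2(value + 1) with limma 3.58.1 (R 4.3.3, empirical Bayes with trend), 8 group means over all 32 libraries, for genes of at least 10 in 4 libraries. Adjusted p-values are Benjamini-Hochberg over all genes tested, and fold changes are on this scale. Because the values were normalized and not whole counts, the limma test was used, and the code was tested on simulated data. The precision is that of 7.76 to 21.3 M reads a library, and approximate reads cover counting error only. Tables were handled with Python 3.11.15, pandas 2.3.3 and scipy 1.17.1.

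Members and lists were chosen with earlier results of these data known. 1 member and 1 gene of the lists, which are included in the counts, are not reported here. Members called, and the highest member of each role, are given in full or as ranges, the others by value or count, and from each list of other genes the 2 largest rises and falls among its calls. Labels do not say that replicates are separate animals, so p-values measure the spread between these libraries. Libraries of the same replicate number at the 2 stages were compared by the correlation of their deviations from group means. It was 0.16 to 0.61 in MC, 0.30 to 0.51 in FC, 0.39 to 0.67 in MFGR and -0.40 to 0.56 in FFGR. The correlation was highest with the same number for 4 of 4 preadipocyte libraries in FC and MFGR, 3 in MC and 2 in FFGR. Alternatives were another pseudocount, scaling, filter, weights, the highest transcript, a slope covariate, a replicate block, the compared libraries alone and leaving out libraries. In the differentiation and response contrasts the replicate block paired the 2 stages by sex, growth group and replicate number. In the growth restriction and sex contrasts it was the replicate number alone.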

Additional observations from a re-analysis of the deposited data

Results flagged for a closer look

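Among the 20 members looked at in this way, 16 of 160 groups of 4 libraries held 1 outlying library by Dixon's criterion. Its gap to the nearest other library was a large part of the range on the log2(value + 1) scale. Chance meets this criterion in about 1 in 20 groups. The 160 groups are not independent, since the same libraries are read for every member, so this rate is no test of the 16 flags. The low-slope library FC2 was the lowest of its group for HSPG2 (676, against 10860 to 16222), ITGAV (536), LAMA4 (1783), LAMA5 (20.3) and LAMB1 (6003), and the highest for ITGAE (163). The low-slope library FFGRD3 was the lowest for ITGAV (592), LAMA2 (697), LAMB1 (3479) and LAMC1 (782). FCD2, also of low slope, was the highest for ITGA3 (194, against 13.4 to 17.4) and ITGAD (3.88, against 0). With the other FCD libraries all at 0, any ITGAD value above 0 would be flagged. The rate of 1 in 20 does not apply to that flag. Outside these, ITGA6 was low in FCD4 (5.62, against 528 to 825), ITGA3 in MFGRD3 (3.09), LAMA3 in FFGRD1 (24.4) and LAMA4 in MC4 (7721, against 17399 to 20220).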

How the results depend on the processing

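The count of 11 members called for the mean of the differentiation contrasts was 6 of 23 with a filter of 20 CPM in 3 libraries (22.2% of all genes called) and 17 with library weights (31.2%), against 27.2% for the reported count. It stayed within 1.5 times under the other settings, at 16 with the slope as covariate (33%) and 15 with the replicate block (31.6%), which lost none of the 11 and added ITGB8, ITGA10, HSPG2 and ITGA4. Leaving out each library gave 9 to 13. For MCD against MC (4) the count was 2 with equal library totals, with no filter and with the 20 CPM filter (7.98%, 5.28% and 7.43% of all genes), 10 with weights (19%), and 2 to 5 without single libraries. For FCD against FC (1) it was 2 with the slope covariate (12.4%), 11 with weights (15.7%), 5 without the low-slope libraries (5.75%) and 0 to 2 without single libraries. For MFGRD against MFGR (3) it was 6, 7 and 5 under these settings (16.3%, 15.2% and 8.68%) and 2 to 4. For FFGRD against FFGR (3) it was 0 on its own 8 libraries (2.67%) and 7 with the replicate block (17.2%), where the numbers pair only in part. There it was 8 with the slope covariate (20.6%), 5 with weights (11.4%) and 2 to 5 without single libraries. The cause of these changes was not tested. Every growth restriction, sex and response count was 0 under each setting run, and leaving out single libraries gave 0 to 0. Of the 11 called members 0 changed sign in the mean contrast. Among members not called 5 did in 1 or more settings, each without a call: ITGA1, ITGA2, ITGA11, LAMC1 (0.08, and -0.24 without the low-slope libraries) and DAG1 (-0.02, and 0.11 with equal library totals). The fit on the compared libraries alone gives no value for the mean and the interaction contrasts, which use all groups. Values near 10 rest on few reads, which limits ITGAD, ITGB7, ITGAX, LAMC3 and ITGA7.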

Other observations

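ITGA5, ITGB1 and ITGAX had their highest preadipocyte values in the same 4 libraries, 1 from each group: MC2, FC1, MFGR3 and FFGR1. ITGA5, the fibronectin receptor chain, stood at 3193, 6065, 3299 and 3768 in these and at no more than 2224 in the other 12, and its partner ITGB1 at 43860, 39103, 41697 and 28683. ITGAX stood at 49.0, 247, 58.6 and 115. Of all genes passing the filter 2.0% had these 4 libraries as their highest. The pattern was noticed in the values and was not tested.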
